A study of Mus musculus with 308 samples.

Results

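B cell genes are a list of 34 genes that mark B lymphocytes in mouse: surface receptors, components of the B cell receptor, transcription factors and signalling adaptors. A probe set (the group of short array probes that reads 1 transcript) was taken as a member when its only gene symbol in the probe gene table was a listed gene. This gave 49 probe sets of 32 genes, out of 45141 probe sets on the array, of which 28898 carry 1 gene symbol. Ighd and Fcmr had no probe set of their own in the table and were not analysed here. Of the 49 members, 47 passed the filter on low values in spleen, in both lymph nodes and in blood, and 37 passed it in jejunum.

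The study measured expression on Affymetrix HT MG-430 PM arrays in tissues of C57BL/6 mice, and the 216 arrays of blood, spleen, mesenteric lymph node, inguinal lymph node and jejunum are described here. DMF is dimethyl fumarate, the methyl diester of fumaric acid, and MEF is monoethyl fumarate, given as its Ca, Mg and Zn salts. Groups are named by compound and dose in mg/kg: DMF at 100 or 179.2 (DMF100 and DMF179.2), MEF salts at 79.2 (MEF79.2), and DMF100 given together with MEF79.2 (the combination). The control mice received the vehicle alone, hydroxypropyl methylcellulose at 0.8%. A further group is labelled Nav, a name that the sources used here do not explain. Dosing was daily over 10 days, and organs were collected 12 h after the final administration. Age, sex and the number of animals per array are not given in the labels used here. The arrays per group, in the order DMF100, DMF179.2, MEF79.2, combination, Nav and vehicle, numbered 8, 8, 7, 8, 8 and 8 in spleen, 8, 8, 7, 6, 7 and 8 in mesenteric lymph node, and 8, 6, 6, 8, 8 and 8 in inguinal lymph node. In the same order, blood had 7, 8, 5, 6, 5 and 7 arrays and jejunum had 6, 7, 7, 8, 7 and 8. The p-values measure the spread between these arrays.

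B cells carry an antigen receptor made of a membrane immunoglobulin and the signalling chains CD79A and CD79B. The complement receptor CR2, a co-receptor, strengthens its signal, and CD22 and CD72 dampen it. Survival of mature B cells depends on the cytokine BAFF, which binds the receptor encoded by Tnfrsf13c, while CXCR5 and CCR6 guide the cells to follicles and to epithelium. Pax5, Ebf1 and Pou2af1 hold the B cell programme, and Ciita switches on the MHC class II genes with which B cells present antigen to T cells. Spleen and lymph nodes are rich in B cells, and in the gut wall B cells sit mostly in Peyer's patches and small follicles.

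Promoter sequences are shown for members that were called in 1 or more comparisons below and whose promoters hold a motif of a B cell transcription factor. RefSeq promoters (assembly GRCm38.p6) were available for 25 of the member genes, and the 250 bases before each gene's start were searched on both strands, as were those of 27025 genes in all. The octamer ATGCAAAT, bound by the POU factors that Pou2af1 assists, was present in 12.0% of the members' promoters (Blnk, Ccr6 and Vpreb3) and in 1.81% of all promoters. The core GAGGAAGT, bound by PU.1 and SPIB, was present in 12.0% of the members' promoters (Btla, Cd37 and Cd72) and in 2.79% of all. The paired half-sites of EBF1, TCCC and GGGA with any 2 bases between them, were present in 4.0% (Cd22 alone) and in 0.91% of all, and the kappaB decamer (GGGAC joined to TTTCC) was in none of the members' promoters and in 0.16% of all. Each stretch below is 80 bases on the gene's own strand, 5′ to 3′, with the match in capitals, read on either strand; for all but Blnk it ends at the base before the gene's start. The Ccr6 stretch lies at chr17:8235963-8236042 (plus strand), the Blnk stretch at chr19:40994292-40994371 (minus strand), the Cd22 stretch at chr7:30879029-30879108 (minus strand), the Cd37 stretch at chr7:45238840-45238919 (minus strand) and the Btla stretch at chr16:45224257-45224336 (plus strand). A match describes these letters and not a site in use.
Ccr6: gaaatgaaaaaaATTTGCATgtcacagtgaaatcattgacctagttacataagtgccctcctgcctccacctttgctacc
Blnk: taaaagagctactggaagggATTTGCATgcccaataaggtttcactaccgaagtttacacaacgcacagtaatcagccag
Cd22: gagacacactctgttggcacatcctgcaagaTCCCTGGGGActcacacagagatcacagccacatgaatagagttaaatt
Cd37: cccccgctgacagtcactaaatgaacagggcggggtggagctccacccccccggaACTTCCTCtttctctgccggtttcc
Btla: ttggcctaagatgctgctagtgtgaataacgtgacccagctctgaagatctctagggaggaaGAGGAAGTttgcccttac

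All values are log2 expression values as deposited, and tissues were normalized apart, so levels are compared only within a tissue. Array medians spanned 3.362 to 3.408 in blood, 4.816 to 4.933 in jejunum, 5.138 to 5.313 in mesenteric lymph node, 5.369 to 5.497 in inguinal lymph node and 5.379 to 5.536 in spleen. The B cell markers Ms4a1 and Cd79a lay far above these medians in vehicle spleens and lymph nodes, and in jejunum Ms4a1 was near the lowest value on most vehicle arrays. Some arrays stood apart before any comparison. By the median correlation with the other arrays of its own group, DMF179.2 array 23 was lowest in mesenteric lymph node (0.9534), and Nav array 40 was lowest in spleen (0.9504) and in blood (0.9606). A member was called when limma's Benjamini-Hochberg adjusted p over all tested probe sets of the tissue was under 0.05. Fold changes are log2 differences from vehicle ± standard error unless another reference is named, and intervals are 95% confidence intervals. In these bulk tissues, fewer B cells and less RNA per B cell cannot be told apart.

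B cell genes were called lower most often in spleen and mesenteric lymph node, both under DMF179.2. In spleen, 23 of 47 member probe sets (18 genes) were lower and 0 were higher, against 12.4% of all 16556 tested probe sets that were lower and 15.4% that were higher. In mesenteric lymph node, 18 of 47 (14 genes) were lower and 0 were higher, against backgrounds of 2.15% and 5.22% of 16663. The mesenteric count was 6 without DMF179.2 array 23, 10 without vehicle array 1, between 12 and 25 without any other single array of these groups, and 5 with DMF179.2 and vehicle arrays fitted alone. Shares of all probe sets called in these refits were not counted. The median member changed by −0.18 in spleen and by −0.30 in mesenteric lymph node, where the medians over all tested probe sets were 0.03 and 0.01. No member was called under DMF179.2 in inguinal lymph node (backgrounds 0.0303% lower and 0.273% higher) or in blood (0.354% and 0.573%). The changes were small: the mean of the member probe sets ranged from 9.96 to 10.24 in DMF179.2 spleens, against 10.18 to 10.42 in vehicle spleens, and the ranges overlapped.

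**Figure D1:**
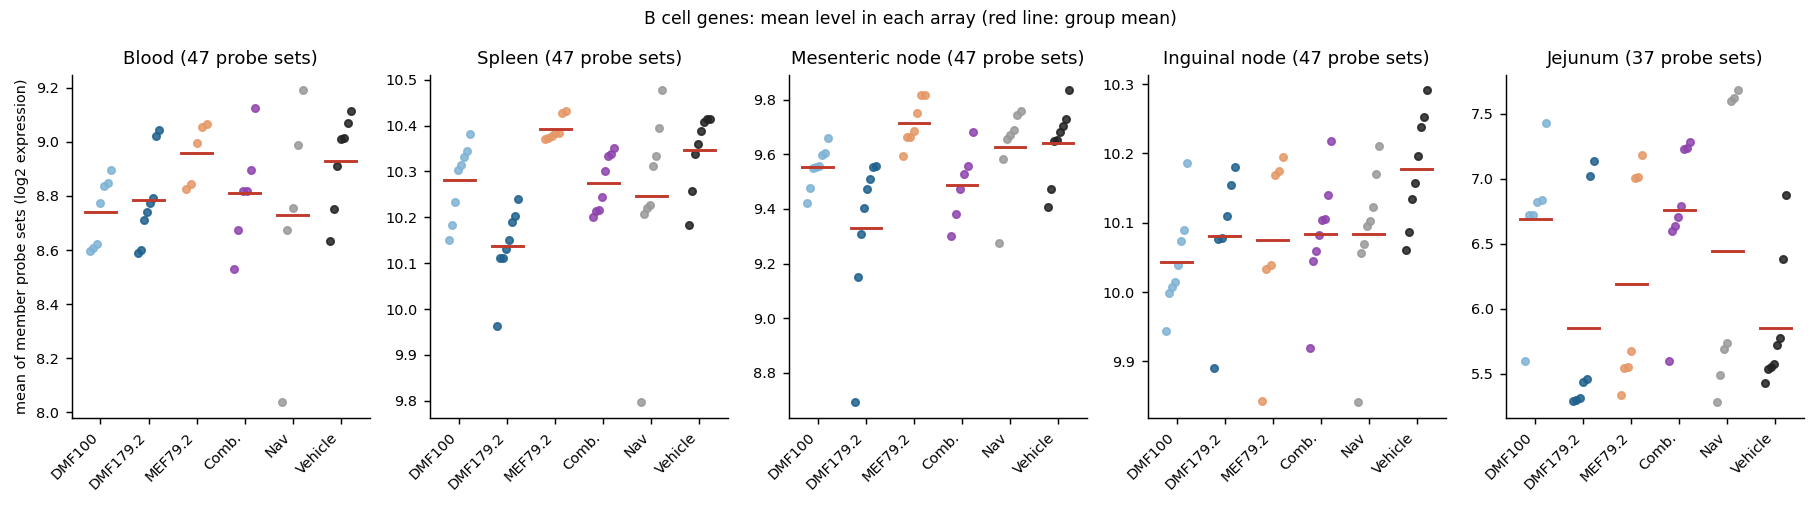
Mean log2 value of the tested B cell probe sets in each array (y axis, own scale per tissue) for 5 tissues, with groups along the x axis. Points are arrays and the red line is the group mean. Levels in spleen DMF179.2 arrays reach 10.24 at most, against 10.42 in vehicle, and jejunum arrays spread over more than 1 log2 unit in every group.

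In spleen, the chemokine receptor gene Ccr6, which guides B cells toward epithelium and follicle borders, had the smallest adjusted p of the members. Its level was lowest at 8.94, with a median of 9.27 and a highest value of 9.42, in DMF179.2 spleens, against 9.63, 9.75 and 10.14 in vehicle spleens. All 8 DMF179.2 arrays lay below the lowest vehicle array. The difference was −0.51 ± 0.08 (limma adjusted p = 9.94e-05), or 70.0% of the vehicle level. Ccr6 was also the member called under DMF100 in spleen, the only one there (1 lower and 0 higher, against 0.35% and 0.574% of all probe sets). Its DMF100 values ran from 9.12 through a median of 9.31 to 9.60, all 8 below the vehicle arrays, with a difference of −0.41 (adjusted p = 0.00376). The levels at the higher and lower DMF dose overlapped, and their difference of −0.10 had an interval of −0.26 to 0.05 (adjusted p = 0.4).

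Among the receptors and chains of the antigen receptor complex, Cd22, an inhibitory lectin that recruits a phosphatase to the receptor, fell on 1 of its 2 probe sets. That probe set (1419769) read 9.17, 9.57 and 9.83 as lowest, median and highest in DMF179.2 spleens, against 9.83, 10.08 and 10.34 in vehicle spleens. The groups did not overlap, and the difference was −0.53 ± 0.09 (adjusted p = 0.000456). The other Cd22 probe set (1419768), which reads a higher level, differed by 0.03 (adjusted p = 0.659), so the probe sets of Cd22 disagree. Cd79b, the receptor's beta signalling chain, read 12.42, 12.48 and 12.60 in DMF179.2 spleens against 12.55, 12.60 and 12.73 in vehicle spleens. Although 6 of 8 DMF179.2 arrays lay below every vehicle array, the change was only −0.11 ± 0.04 (adjusted p = 0.0244). Cd79a, the alpha chain, overlapped almost fully at 12.20, 12.32 and 12.42 in DMF179.2 against 12.24, 12.37 and 12.54 in vehicle (−0.07, adjusted p = 0.385). Ighm, the mu heavy chain gene, read 6.26, 6.97 and 7.40 against 6.46, 6.81 and 7.63 in vehicle, and did not pass the test (−0.09, adjusted p = 0.803).

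Cr2, the complement receptor that acts as co-receptor, read 11.19, 11.40 and 11.65 in DMF179.2 spleens against 11.52, 11.63 and 11.81 in vehicle spleens. The groups overlapped, with 5 of 8 DMF179.2 arrays below the vehicle range, and Cr2 fell by 0.24 (adjusted p = 0.00735). Ms4a1, which encodes CD20, read 11.83, 12.07 and 12.23 on its probe set 1423226 in DMF179.2 against 12.07, 12.28 and 12.41 in vehicle. It fell by 0.21 (adjusted p = 0.0114), with 4 arrays below the vehicle range, while its other probe set differed by −0.08 (adjusted p = 0.184). Fcer2a, the low affinity IgE receptor CD23, read 6.59, 6.91 and 7.28 on probe set 1451713 against 6.87, 7.36 and 7.61 in vehicle, with the groups overlapping and a change of −0.41 ± 0.14 (adjusted p = 0.0284). Its brighter probe set, 1422122, moved the other way by 0.26 without passing the test (adjusted p = 0.128).

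Of the receptors for B cell survival cytokines, Tnfrsf13b, which encodes TACI, read 10.46, 10.68 and 10.87 in DMF179.2 spleens against 10.82, 11.05 and 11.15 in vehicle spleens, with 7 of 8 arrays below the vehicle range. It fell by 0.35 (SE 0.07, adjusted p = 0.000801). Tnfrsf13c, which encodes the BAFF receptor, averaged 12.52 ± 0.04 in DMF179.2 (SD, n = 8) and 12.53 ± 0.11 in vehicle (SD, n = 8), a difference of −0.01 with an interval of −0.11 to 0.10. Whether the genes differ in response was not tested. Of 8 tested probe sets for survival and homing signals to B cells, 2 were lower and 0 higher: Tnfsf13b, the BAFF cytokine itself, by 0.83 (adjusted p = 0.00949), and Cxcl13, the follicle chemokine, by 0.21 (adjusted p = 0.0324).

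Transcription factors of the list also fell in part. Ciita, the MHC class II transactivator, read 7.90, 8.53 and 8.89 on probe set 1421211 in DMF179.2 spleens against 8.94, 9.20 and 9.27 in vehicle spleens. The groups did not overlap, and Ciita fell by 0.65 (SE 0.13, adjusted p = 0.00116); probe set 1447075 fell by 0.73 and 1421210 differed by −0.11 (adjusted p = 0.329). Ikzf3, the lymphocyte zinc finger factor Aiolos, read 7.79, 8.36 and 8.95 against a median of 9.18 and a highest value of 9.60 in vehicle, again without overlap, and fell by 0.88 (SE 0.21, adjusted p = 0.0039). Spib, an ETS factor of B cells and plasmacytoid dendritic cells, read 11.39, 11.82 and 12.00 against 11.94, 12.04 and 12.15 in vehicle. The groups overlapped, 7 of 8 DMF179.2 arrays lay below the vehicle range, and Spib fell by 0.26 (adjusted p = 0.0123). Ebf1, the early B cell factor, fell on 2 of 3 probe sets (by 0.30 and 0.36), and Pou2f2, the octamer factor OCT2, fell by 0.27 on its tested probe set. Pou2af1, the octamer co-activator, differed by −0.08 (adjusted p = 0.134), and the 3 probe sets of Bach2, a repressor that delays plasma cell differentiation, differed by 0.22, 0.19 and −0.24 without passing the test. Pax5 did not pass the filter in any of the 5 tissues and averaged 5.11 ± 0.09 in DMF179.2 spleens (SD, n = 8) and 5.16 in vehicle spleens (n = 8), where every array read the same value.

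The remaining called members in spleen are signalling and cell surface genes. Plac8, a cysteine-rich protein of leukocytes, read 11.88, 11.98 and 12.23 in DMF179.2 against 12.12, 12.30 and 12.42 in vehicle, with 6 of 8 arrays below the vehicle range, and fell by 0.28 (adjusted p = 0.00195). Swap70, a guanine exchange factor of activated B cells, read 11.15, 11.26 and 11.47 against 11.36, 11.58 and 11.71 in vehicle, with 7 of 8 arrays below, and fell by 0.28 (adjusted p = 0.00232). Its second probe set fell by 0.18. Cd37, a tetraspanin, fell by 0.96 on its dim probe set 1425736, which read 7.15, 7.60 and 8.23 in DMF179.2 against 8.01, 8.60 and 9.06 in vehicle, and by 0.23 on its bright one. Stap1, an adaptor of receptor signalling, fell by 0.29, 1 of 3 probe sets of the Fc receptor-like gene Fcrla fell by 0.31, and 1 of 3 of Ralgps2, a Ral exchange factor, fell by 0.26. Differences that did not pass the test were −0.11 for the adaptor Blnk, −0.09 for the kinase Blk, 0.03 for the scaffold Bank1, −0.06 for the inhibitory receptor Btla, −0.02 for Cd72, −0.10 for the follicle homing receptor Cxcr5, 0.03 for the inhibitory lectin Siglecg and −0.18 for Vpreb3, which assists receptor assembly.

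**Figure D2:**
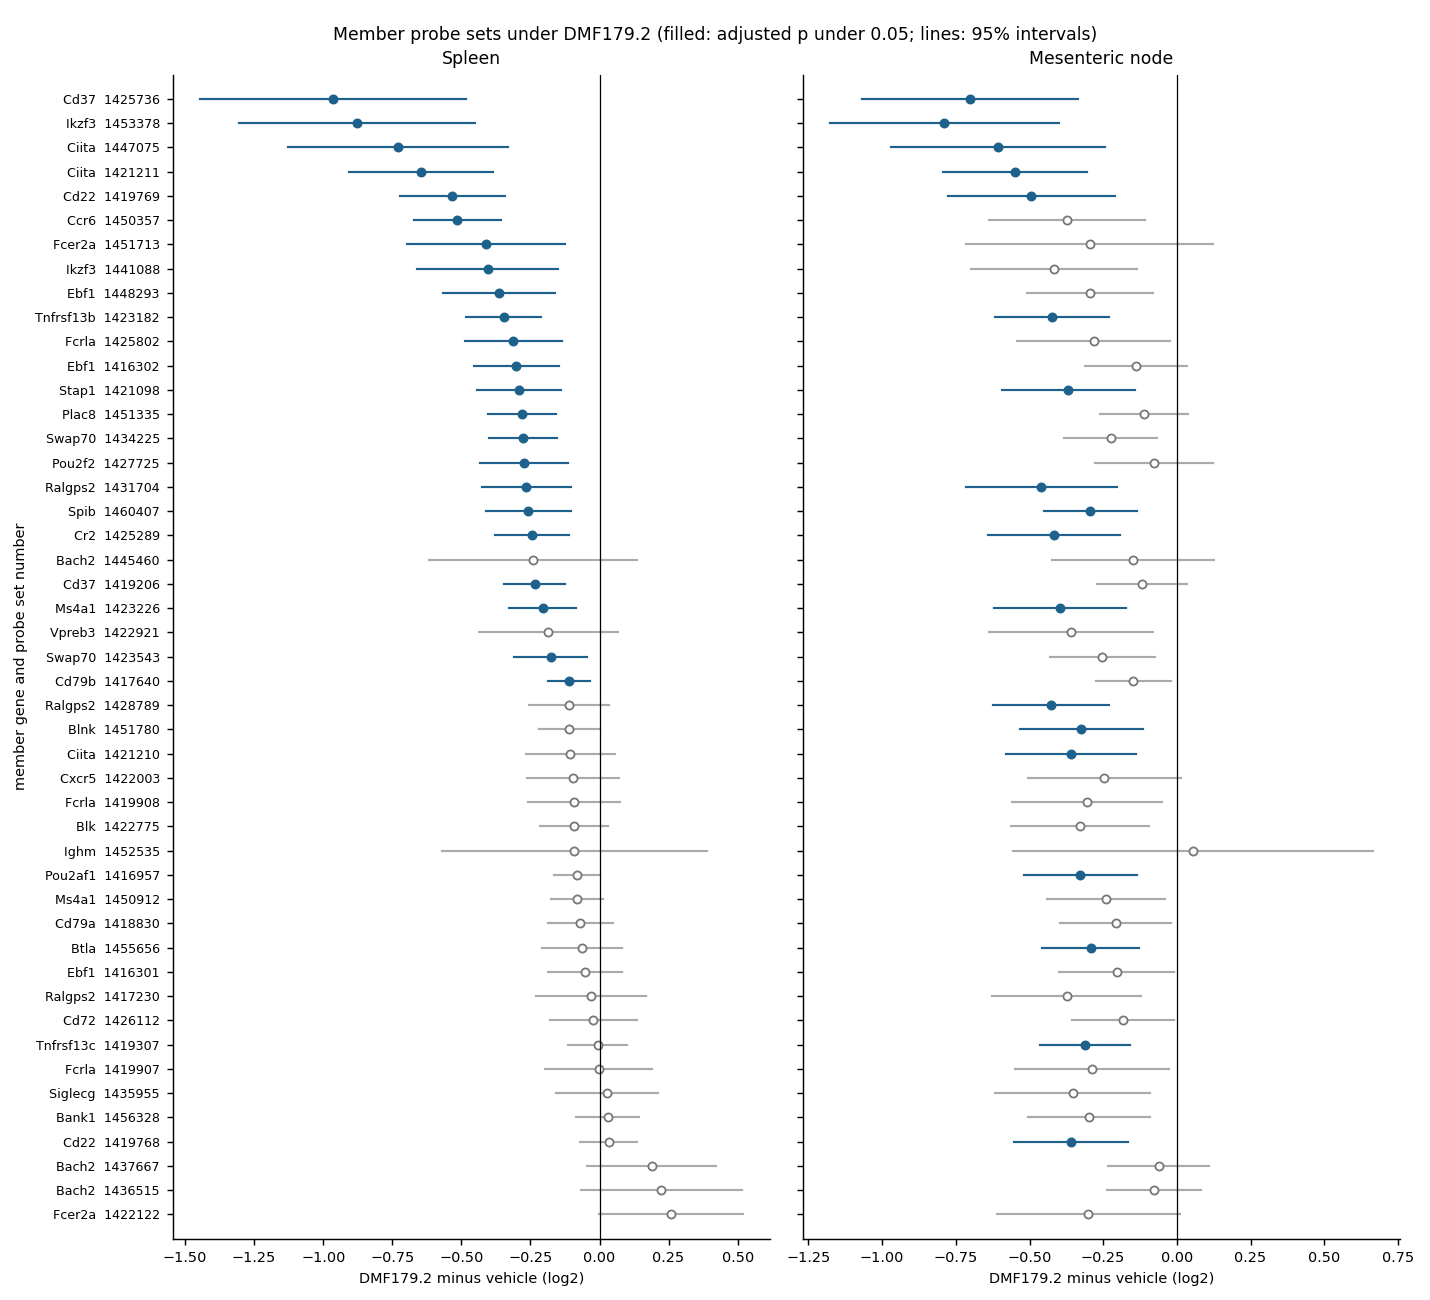
Log2 difference between DMF179.2 and vehicle for every tested B cell probe set (1 row each) in spleen and mesenteric lymph node. Points are limma estimates, lines are 95% confidence intervals, and filled points passed an adjusted p of 0.05 (23 in spleen, 18 in mesenteric lymph node). The filled points all lie below 0.

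**Figure D3:**
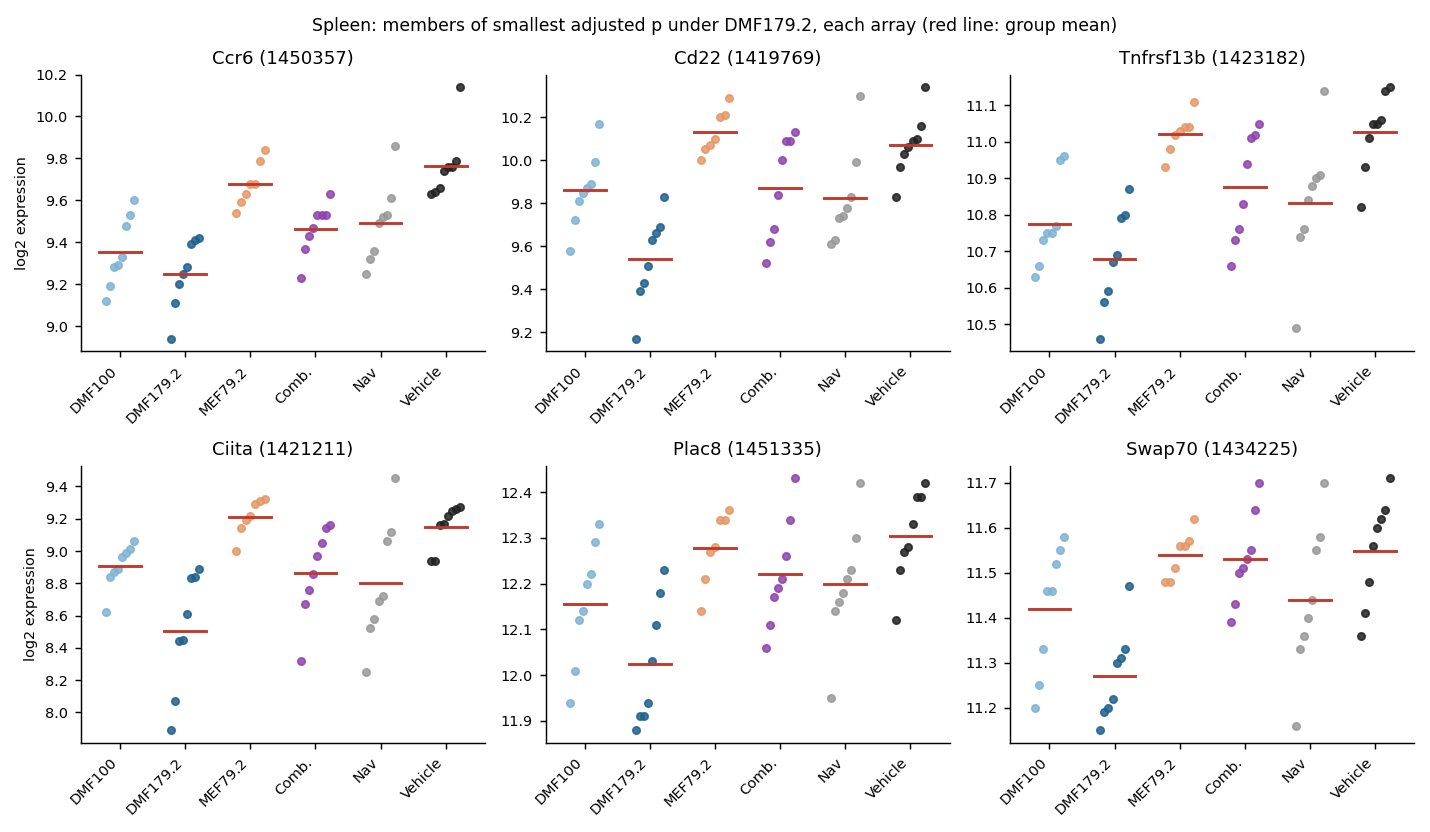
Log2 values of 6 B cell genes in each spleen array by group; points are arrays and red lines are group means. In the panels of Ccr6, Cd22 and Ciita, no DMF179.2 point reaches the lowest vehicle point.

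Other gene lists moved in DMF179.2 spleens as well. Of 22 tested erythroid probe sets, 14 (11 of 15 genes) were higher and 0 lower, with a median of 1.31: Tfr2, a transferrin receptor of erythroid precursors, was higher by 2.41, Ank1, an ankyrin of the red cell membrane, by 2.29, and Klf1, the erythroid transcription factor, by 2.28. The erythroid mean per array was 9.19, 9.46 and 10.27 (lowest, median and highest) in DMF179.2 spleens against 6.84, 8.29 and 9.83 in vehicle spleens, and 12 of 18 cell cycle probe sets were higher. The part of these shifts in the B cell result was not tested. The T cell list had 4 lower and 1 higher of 25 probe sets, and its mean per array spanned 8.65 to 9.12 in DMF179.2 and 8.71 to 9.11 in vehicle. The difference between 3′ and 5′ probe sets of actin and GAPDH, a sign of RNA quality, averaged 1.392 ± 0.111 in DMF179.2 spleens (SD, n = 8) and 1.196 ± 0.069 in vehicle spleens (SD, n = 8), and its part in the result was not tested either.

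Genes that work beside the members were also counted in DMF179.2 spleens. Of 39 probe sets of other B cell receptor signalling genes, 12 were lower and 3 higher: Malt1, a protease of the signalling complex downstream of the receptor, fell by 0.43 (adjusted p = 0.00226), Pik3ap1, an adaptor of PI3 kinase, by 0.34, and Grb2, an adaptor of Ras signalling, by 0.21. The MHC class II list had 7 lower and 0 higher of 17, with H2-DMb2 at −0.59, H2-Oa at −0.30 and H2-Aa at −0.20, chains that load or present peptide. Of 15 plasma cell probe sets, 3 were lower (Irf4 by 0.22, Edem1 by 0.20 and Iglv1 by 0.31), and of 8 germinal centre probe sets none passed the test in either direction.

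In mesenteric lymph node, no member's DMF179.2 and vehicle arrays were fully apart. Ciita read 7.68, 8.56 and 8.82 on probe set 1421211 in DMF179.2 nodes against 8.66, 9.05 and 9.25 in vehicle nodes, with 7 of 8 arrays below the vehicle range. It fell by 0.55 (SE 0.12, adjusted p = 0.00564), and its other 2 probe sets fell by 0.61 and 0.36. Of the survival receptors, Tnfrsf13b read 8.93, 9.88 and 10.05 against 9.98, 10.17 and 10.33 in vehicle (7 of 8 below, −0.42 ± 0.10, adjusted p = 0.00765). Tnfrsf13c, which did not pass in spleen, read 10.95, 11.49 and 11.76 against 11.63, 11.81 and 11.91 in vehicle (5 of 8 below, −0.31 ± 0.08, adjusted p = 0.0113). With spleen and mesenteric lymph node in 1 fit, the mesenteric Tnfrsf13c response minus the splenic one was −0.30 ± 0.09 (limma adjusted p = 0.0381), and −0.23 ± 0.08 (adjusted p = 0.0978) without mesenteric array 23. This fit was chosen after seeing the data, and 2 of 47 members were called in it, against 5% of 15730 probe sets. With all 5 tissues in the fit, no member was called between mesenteric and splenic responses.

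Ralgps2 read 9.47, 10.37 and 10.53 on probe set 1428789 in DMF179.2 mesenteric nodes against 10.44, 10.68 and 10.82 in vehicle nodes. Of its 8 DMF179.2 arrays, 7 lay below the vehicle range, and Ralgps2 fell by 0.43 (SE 0.10, adjusted p = 0.00765). Ikzf3 read 6.93, 8.34 and 8.66 on probe set 1453378 against 8.59, 8.95 and 9.38 in vehicle, with 7 of 8 below, and fell by 0.79 (adjusted p = 0.0113). Its other probe set was not called. Cd37 fell by 0.70 on probe set 1425736 (6.60, 7.21 and 7.63 against 7.62, 7.78 and 8.37 in vehicle, adjusted p = 0.0159), and differed by −0.12 on the other (adjusted p = 0.335). Spib read 10.46, 11.24 and 11.34 against 11.19, 11.41 and 11.59 in vehicle and fell by 0.29 (adjusted p = 0.0178), with the groups overlapping.

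Of the surface and receptor genes, Cr2 read 9.04, 10.14 and 10.30 in DMF179.2 mesenteric nodes against 10.09, 10.40 and 10.63 in vehicle nodes and fell by 0.42 (adjusted p = 0.0179). Both Cd22 probe sets fell here, by 0.36 and 0.49 (adjusted p = 0.0182 and 0.0273). Ms4a1 read 10.08, 11.10 and 11.35 on probe set 1423226 against 11.19, 11.41 and 11.65 in vehicle, with 5 of 8 arrays below, and fell by 0.40 (adjusted p = 0.0247), while its other probe set differed by −0.24 (adjusted p = 0.117). The chains Cd79a (10.72, 11.59 and 11.66 against 11.46, 11.64 and 11.82 in vehicle) and Cd79b (11.26, 11.77 and 11.94 against 11.73, 11.88 and 11.96) overlapped with vehicle and did not pass the test, at −0.21 (adjusted p = 0.157) and −0.15 (adjusted p = 0.134). Btla fell by 0.29, Pou2af1 by 0.33, Stap1 by 0.37 and Blnk by 0.32. Of all 47 tested members, 46 lay below 0, beside 46.06% of all tested probe sets, and the exception was Ighm at 0.05. The members were read on the same arrays and are not independent of each other.

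DMF179.2 array 23 held the lowest member mean of mesenteric lymph node, 8.69, whereas the other 7 arrays of the group spanned 9.15 to 9.56, against 9.41 to 9.83 in vehicle nodes. Without array 23, 6 member probe sets remained called in place of 18, and the share of all probe sets called in that refit was not counted. They were Ciita (−0.44, adjusted p = 0.0187), Tnfrsf13b (−0.31, 0.0168), Ralgps2 (−0.32, 0.0187), Tnfrsf13c (−0.24, 0.0352), Ikzf3 (−0.61, 0.0388) and Spib (−0.20, 0.0489), with adjusted p in each pair of brackets. The 5 calls with DMF179.2 and vehicle arrays fitted alone did not include Ralgps2, Tnfrsf13b or Tnfrsf13c.

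Beside the B cell genes in DMF179.2 mesenteric nodes, 4 of 16 monocyte and macrophage probe sets were higher, and their mean per array was 9.16, 9.29 and 9.43 against 8.89, 9.06 and 9.17 in vehicle. The highest vehicle array sat just above the lowest DMF179.2 array, and Cd209f, a macrophage lectin, was higher by 1.27 (adjusted p = 0.000761), Cd5l, a secreted macrophage protein, by 0.78 and Cd68, a lysosomal protein of macrophages, by 0.32. Of 4 tested neutrophil probe sets, 2 were higher, both of Mmp9, a gelatinase (0.62 on the one of smaller p, adjusted p = 0.000701), and their mean per array was 5.96, 6.38 and 7.14 against 5.32, 5.77 and 6.11 in vehicle. Array 23 held the highest of these neutrophil means. The cell cycle list had 2 lower and 0 higher of 16, the kinase Aurkb (−0.65) and the mitotic regulator Birc5 (−0.47), with a mean per array of 7.38, 8.23 and 8.29 against 7.87, 8.34 and 8.85 in vehicle. The adipocyte mean per array spanned 10.10 to 11.30 in DMF179.2 nodes and 9.67 to 11.16 in vehicle nodes. DMF179.2 arrays 18, 19, 21 and 23, the lowest of the group in member mean, read 11.10, 11.30, 11.16 and 11.11. The rest of the group read 10.10 to 10.64. Vehicle array 4, the lowest vehicle array in member mean (9.41), read 11.10, while vehicle array 7 read 11.16 with a member mean of 9.65. The part of these shifts and levels in the B cell result was not tested. Of the other lists, 1 of 40 probe sets of B cell receptor signalling (Inpp5d, a lipid phosphatase, −0.28), 1 of 17 of MHC class II (H2-DMb2, −0.35) and 1 of 10 of the germinal centre (Lmo2, −0.29) were lower. The plasma cell list had none of 15 called, and the T cell list 1 lower of 26 (Cd247, the T cell receptor zeta chain, −0.27) with a median of 0.04.

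**Figure D4:**
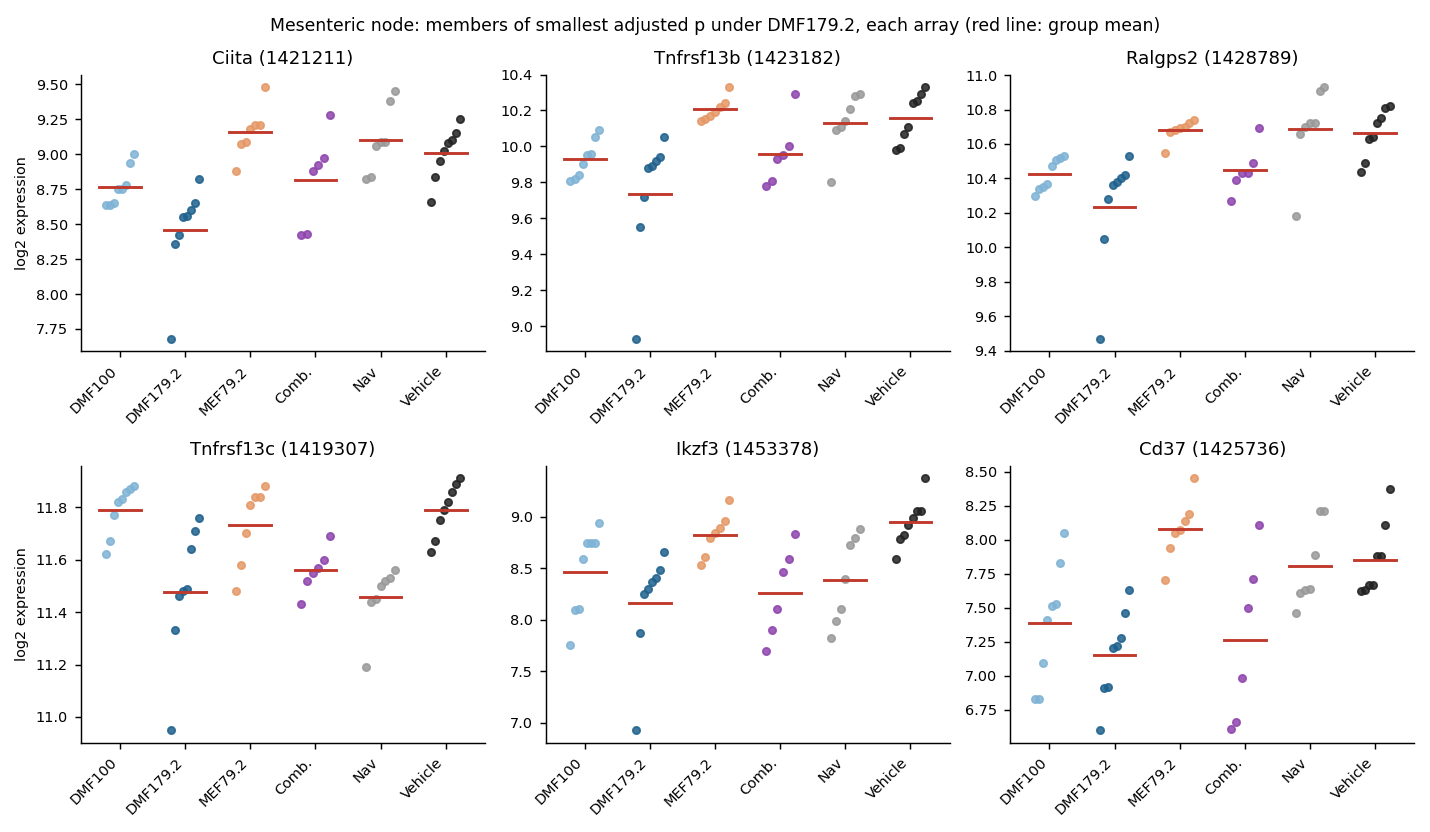
Log2 values of 6 B cell genes in each mesenteric lymph node array by group; points are arrays and red lines are group means. In the Ciita panel 7 of 8 DMF179.2 points lie below the lowest vehicle point, and 1 DMF179.2 array (23) is the lowest point of its group.

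The other treatments changed few B cell genes in mesenteric lymph node. The combination lowered 4 members and raised 0, against 3.68% of all probe sets lower and 7.55% higher. Pou2af1 read 10.51, 10.55 and 10.67 under the combination against 10.79, 10.95 and 11.13 in vehicle, with all 6 arrays below, and fell by 0.39 (SE 0.10, adjusted p = 0.0157). Ebf1 read 8.83, 9.01 and 9.31 on probe set 1448293 against 9.18, 9.47 and 9.67 in vehicle (5 of 6 below) and fell by 0.43 (adjusted p = 0.0164). Ikzf3 and Cd37 fell by 0.68 and 0.59 on probe sets 1453378 and 1425736 under the combination (adjusted p = 0.0305 and 0.0453), and leaving out single arrays ended these 2 calls for several arrays. In the same nodes 5 of 16 monocyte and macrophage probe sets were higher, among them Cd209f by 1.14, Ccr2, a chemokine receptor, by 0.45 and Cd68 by 0.41, and the list's mean per array was 9.14, 9.31 and 9.45 under the combination against 8.89, 9.06 and 9.17 in vehicle. Mmp9 was higher by 0.68, and Cd247 was lower by 1.01 on 1 probe set, the 1 call of 26 in the T cell list. Aurkb was lower by 0.72. Combination array 35 held the lowest member mean (9.30) and the highest adipocyte mean (11.42) of its group. The part of these shifts and levels was not tested. Under MEF79.2, Ebf1 was the single called member (1 lower, 0 higher, against 3.03% and 1.6%): its probe set 1416301 read 9.02, 9.38 and 9.63 against 9.52, 9.64 and 9.88 in vehicle, −0.33 ± 0.10 (adjusted p = 0.0479), with 5 of 7 below, and this call too was lost under 5 settings. DMF100 gave 0 calls of members with limma (0.504% lower and 1.3% higher over all), and 5 of 47 members at an unadjusted p under 0.05, where 14.6% of all probe sets were.

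Direct comparisons set DMF179.2 against DMF100 and against the combination, which holds the same total dose in mg/kg when MEF is counted as its salts. In spleen, 3 members were lower and 0 higher under DMF179.2 than under DMF100 (backgrounds 0.972% and 1.37%). These were Ebf1 on probe set 1416302 (9.12 ± 0.12 in DMF179.2 and 9.40 ± 0.17 in DMF100, SD, n = 8 each, a difference of −0.28, interval −0.43 to −0.13), Cd37 on 1419206 (−0.20, adjusted p = 0.0476) and Pou2f2 on 1427725 (−0.28, adjusted p = 0.049). Against the combination, 4 members were lower and 0 higher (backgrounds 1.62% and 3.05%). These were Swap70 on probe set 1434225 (−0.26, interval −0.38 to −0.14), Cd22 on 1419769 (−0.33, interval −0.52 to −0.14), Fcrla on 1425802 (−0.29, adjusted p = 0.0428) and Plac8 (−0.20, adjusted p = 0.0477). In both spleen comparisons, no other tested probe set of the genes named was called. In mesenteric lymph node no member was called in either comparison (backgrounds 0.096% lower and 0.174% higher against DMF100, and 0.006% and 0 against the combination). The medians there were −0.21 against DMF100 (21 of 47 members at an unadjusted p under 0.05, limma, beside 19.2% of all probe sets) and −0.16 against the combination (9 of 47, beside 10.5%). Tnfrsf13c came nearest at −0.31 with an interval of −0.46 to −0.16 against DMF100 (adjusted p = 0.0521). These comparisons share arrays with those against vehicle. The combination gave 0 calls of members against DMF100 in spleen and in mesenteric lymph node, with 4 and 6 of 47 members at an unadjusted p under 0.05, beside 6.73% and 24.8% of all probe sets (backgrounds of calls 0 in spleen, and 4.14% lower and 3.54% higher in mesenteric lymph node). DMF100 and MEF79.2 differ in dose and were not compared: in spleen their median member changes from vehicle were −0.04 and 0.03, and in mesenteric lymph node −0.07 and 0.06. In spleen the combination and MEF79.2 gave 0 called members (lower and higher backgrounds 0.00604% and 0.0181% for the combination and 0 for MEF79.2), with 10 and 2 of 47 at an unadjusted p under 0.05, beside 7.84% and 4.81% of all probe sets.

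In inguinal lymph node, 2 members were lower and 0 higher under DMF100, against 0.539% and 0.867% of all probe sets. On probe set 1428789, the only one of its probe sets called here, Ralgps2 read 10.93, 11.05 and 11.19 in DMF100 nodes against 11.21, 11.45 and 11.48 in vehicle nodes. All 8 arrays lay below the vehicle range. It fell by 0.32 (SE 0.06, adjusted p = 0.00197). Tnfrsf13b read 10.43, 10.64 and 10.75 against 10.69, 10.83 and 10.94 in vehicle (6 of 8 below, −0.23 ± 0.06, adjusted p = 0.0438). Its call was lost under 5 alternative settings, the hybridisation control covariate among them. These controls averaged 11.913 in DMF100 and 11.873 in DMF179.2 inguinal nodes, against 11.998 in vehicle nodes. Under DMF179.2 no member was called (8 of 47 at an unadjusted p under 0.05, limma, beside 10.6% of all probe sets), and Ms4a1 read 11.83, 12.01 and 12.09 against 11.92, 11.98 and 12.11 in vehicle, a difference of −0.01. MEF79.2 and the combination gave 0 called members too, with 17 and 7 of 47 at an unadjusted p under 0.05, beside 11.2% and 10.7% of all probe sets (backgrounds of calls 0 lower and 0.0121% higher, and 0 lower and 0.0364% higher).

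In blood, Ccr6 was the 1 member called under DMF100 (1 lower, 0 higher, against 0.0915% and 0.11%). It read 6.99, 7.18 and 7.60 in DMF100 blood against 7.68, 7.94 and 8.31 in vehicle blood, and all 7 arrays lay below the vehicle range. It fell by 0.71 (SE 0.15, interval −1.02 to −0.40, adjusted p = 0.0347), to 61.0% of the vehicle level, a call lost with hybridisation controls as a covariate and with no filter. Under DMF179.2, Ccr6 read 6.91, 7.44 and 8.04, with 7 of 8 arrays below the vehicle range, and did not pass the test (−0.50, adjusted p = 0.0818). Ms4a1 and Cd79a in DMF100 blood differed by −0.22 (adjusted p = 0.654) and −0.13. Members called in blood numbered 0 under DMF179.2, MEF79.2 and the combination, with 9, 2 and 3 of 47 at an unadjusted p under 0.05 (limma), beside 15.1%, 10.1% and 6.67% of all probe sets; in MEF79.2 and combination blood no probe set at all was called. Ccr6 was lower on average in all 4 dosed groups, at −0.38 under MEF79.2 (adjusted p = 0.45) and −0.45 under the combination (adjusted p = 0.631).

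In jejunum, B cell genes varied widely among the arrays of every group. Ms4a1 read 2.13, 6.92, 7.23, 7.40, 6.92 and 8.28 in the 6 DMF100 jejuna. In DMF179.2 jejuna it read 2.26, 2.35, 2.20, 7.56, 2.19, 7.33 and 2.13, and in MEF79.2 jejuna 2.13, 2.26, 7.58, 8.07, 2.32, 7.64 and 2.85. It read 7.16, 7.61, 7.93, 6.96, 7.87, 7.02, 7.27 and 2.45 under the combination, against 2.13, 3.12, 6.33, 2.59, 2.15, 7.34, 2.42 and 2.26 in vehicle jejuna. Each of these groups held both arrays near the lowest value of the tissue and arrays over 4 log2 units higher, and the groups overlapped. The change of Ms4a1 in DMF100 jejuna, 2.94 ± 1.30, did not pass the test (adjusted p = 0.418), and that in DMF179.2 jejuna was 0.18 with an interval of −2.34 to 2.69. Cd79a varied likewise, from 4.97 to 8.57 with a median of 7.37 under the combination and from 4.29 to 7.45 with a median of 5.14 in vehicle. The mean per array of genes for B cell survival and homing signals, a list that holds no member, spanned 7.12 to 8.50 (median 8.13) under the combination and 6.37 to 7.89 (median 6.82) in vehicle.

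Bach2 had the smallest adjusted p of the members in DMF179.2 jejuna. Its probe set 1445460 read 6.79, 7.52 and 8.43 in DMF179.2 jejuna against 8.53, 8.69 and 8.85 in vehicle jejuna, a narrow range in arrays of which most had Ms4a1 near the lowest value. All 7 DMF179.2 arrays lay below the vehicle range, and Bach2 fell by 1.08 (SE 0.22, adjusted p = 0.000514), to 47.4% of the vehicle level. The other 2 probe sets fell by 1.15 (adjusted p = 0.00114) and 1.03 (adjusted p = 0.000976), with 5 of 7 arrays below the vehicle range on each. Against DMF100, Bach2 was lower by 0.99, 0.99 and 0.88 (adjusted p = 0.00742, 0.0184 and 0.0176). These are the 3 members lower in that comparison, with 0 higher, against backgrounds of 5.57% and 6.53%. Against the combination the differences were −0.85, −1.04 and −0.93 and did not pass the test (adjusted p = 0.18, 0.171 and 0.169). In the same DMF179.2 jejuna, 2 of 10 epithelial probe sets were lower and 2 higher. Lgr5, a receptor of intestinal stem cells, fell by 1.33 (limma adjusted p = 0.000817) and Epcam, an adhesion protein of epithelium, by 0.15. Alpi, an enterocyte gene, rose by 0.19 (limma adjusted p = 0.00521). The epithelial list's mean per array was 11.84, 11.92 and 12.02 against 11.99, 12.02 and 12.11 in vehicle. Of 12 monocyte and macrophage probe sets 2 were lower, C1qa, a complement chain, by 0.63 and Cd14, a lipopolysaccharide receptor, by 0.80, and both neutrophil probe sets, of Mmp9, were higher (1.12 on the one of smaller p). The T cell list had 1 lower of 13. The part of these shifts in the Bach2 result was not tested.

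In all, 4 members were lower (2 genes) and 1 was higher in DMF179.2 jejuna, against 13.8% and 14.6% of all 16778 probe sets. The fourth was Ciita on probe set 1421211, at 4.34, 4.75 and 5.59 against 4.23, 6.31 and 6.70 in vehicle, where the ranges overlapped (−1.12 ± 0.42, adjusted p = 0.0403). The call was lost when any of several single arrays was left out. Ralgps2 was the member higher there, on probe set 1431704: it read 7.98, 8.23 and 8.42 against 7.54, 7.94 and 8.07 in vehicle, with 5 of 7 above, and rose by 0.30 (adjusted p = 0.00667). This call and that of Ciita were lost with hybridisation controls as a covariate, while Bach2 on probe set 1445460 kept its call. Those controls reached 11.95 at most in DMF179.2 jejuna, 11.919 in DMF100 jejuna and 11.866 under the combination, against 11.973 at least in vehicle jejuna. Under the combination 1 member was higher and 0 lower (backgrounds 1.93% and 1.66%): Bank1 read 2.91, 5.83 and 6.92 against 2.62, 2.97 and 5.09 in vehicle, with 7 of 8 above, a rise of 2.39 ± 0.71 (adjusted p = 0.0499). The Bank1 call was lost under 5 of the alternative settings, the hybridisation control covariate among them. Members called under DMF100 and MEF79.2 in jejunum numbered 0 with limma, with 15 and 0 of 37 at an unadjusted p under 0.05, beside 9.87% and 11.6% of all probe sets (backgrounds of calls 0.31% lower and 0.596% higher, and 0.00596% and 0.0536%). Under the combination 19 of 37 members were at an unadjusted p under 0.05 (limma), beside 22.1% of all. Of these 37 members, 31 lay above 0 with a median of 0.70, where 49.85% of all probe sets lay below 0.

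**Figure D5:**
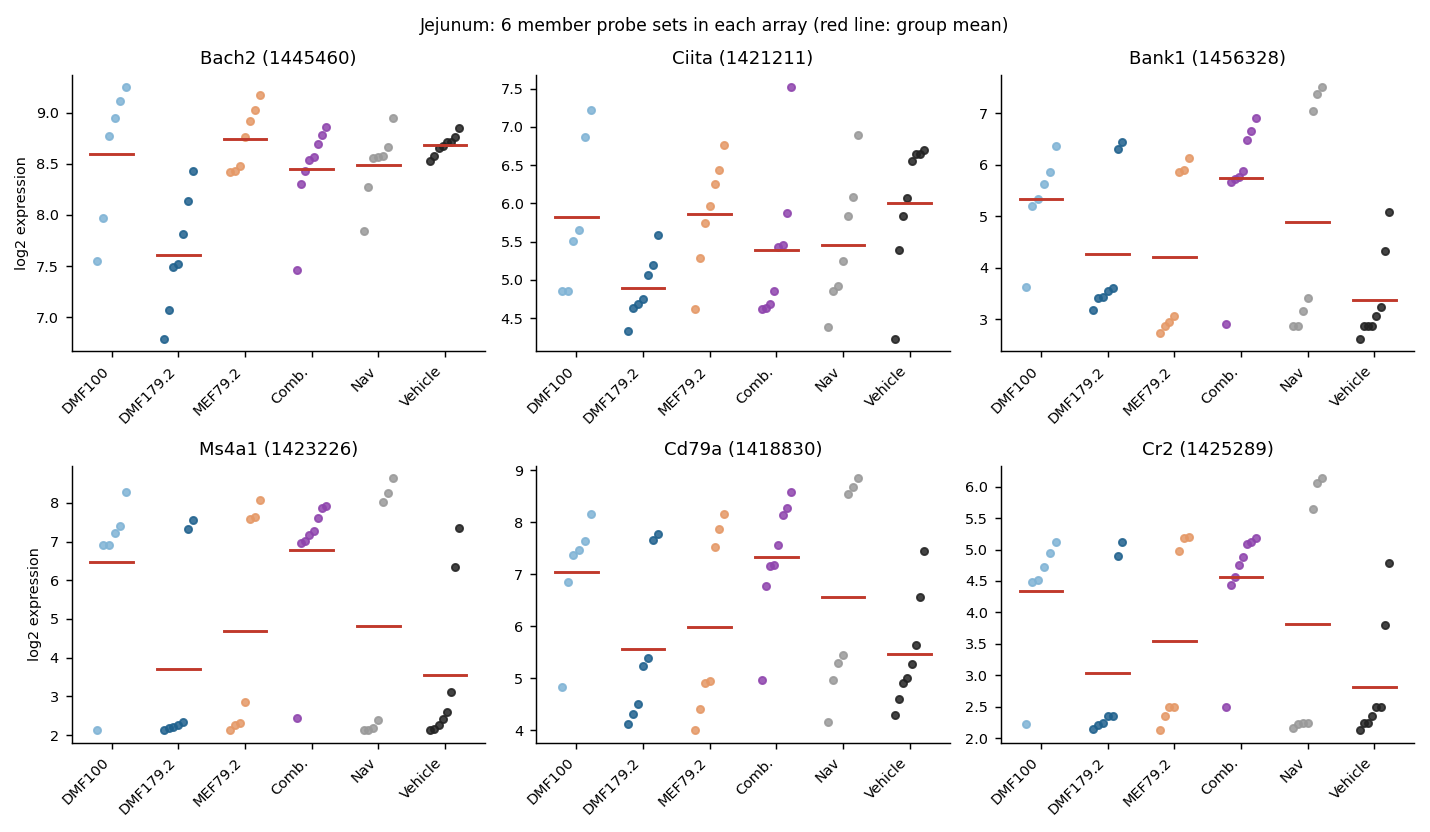
Log2 values of 6 B cell genes in each jejunum array by group; points are arrays and red lines are group means. Bach2 shows all 7 DMF179.2 arrays below the vehicle arrays, whereas Ms4a1 has low and high arrays in every group.

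Whether responses differed among the 5 tissues was tested with an F test in 1 fit over 13415 probe sets tested in each of them, 36 of them members. For the combination 18 members (16 genes) were called, against 3.24% of all probe sets, with mesenteric minus jejunal responses of −2.63 for Bank1 and −4.03 for Ms4a1 on probe set 1450912. For DMF100 6 were called (0.984% over all), namely Ccr6, Bank1, Ms4a1, Spib, Cr2 and Plac8. For DMF179.2 8 were called (Bach2 and Ralgps2 on 3 probe sets each, Blnk and Plac8), a share near the 20.4% of all probe sets, and for MEF79.2 0 were called (2.58% of all). With the replicate number as a block, 24 members were called for the combination, 16 for DMF100, 8 for DMF179.2 and 1 for MEF79.2, against 9.27%, 2.02%, 30.3% and 6.54% of all probe sets, and whether equal numbers are 1 animal is not given in the labels. The Bach2 response in mesenteric node minus that in jejunum was 1.08, 0.97 and 0.93 under DMF179.2, and the Ralgps2 response was −0.76, −0.56 and −0.59. That fit takes 1 spread per probe set over the tissues, and the spread of the members in jejunum was larger than elsewhere, so it could hardly detect gaps between the other tissues: the mesenteric minus splenic response of Tnfrsf13c had a standard error of 0.49 in it. The same shared spread is smaller than the members' spread in jejunum, so gaps that involve jejunum can be called too easily in that fit. For the combination, 21 members were lower in the mesenteric than in the jejunal response, while jejunum on its own gave 1 called member. No member was called in the joint fit between mesenteric and splenic, inguinal or blood responses. With spleen and mesenteric lymph node alone in the fit, a choice made after seeing the data, 2 of 47 members were called for DMF179.2, against 5% of 15730 probe sets, both lower in mesenteric lymph node: Cd22 on probe set 1419768 (−0.39, interval −0.61 to −0.18, adjusted p = 0.0239) and Tnfrsf13c (interval −0.49 to −0.12). Without DMF179.2 array 23 of mesenteric lymph node neither was called (2.58% of all), at −0.29 (adjusted p = 0.0597) for Cd22. For the combination Pou2af1 was called (−0.37, adjusted p = 0.0444), against 2.63% of all, and for DMF100 and MEF79.2 no probe set was called, with 0 and 4 members at an unadjusted p under 0.05 (1.88% and 12.4% of all).

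The group labelled Nav showed called members in spleen and mesenteric lymph node, each against many calls over all probe sets. In spleen 5 members (4 genes) were lower and 0 higher, against 8.21% and 7.22%, among them Fcer2a at −0.67 (adjusted p = 0.00569), Ccr6 at −0.27, Ikzf3 at −0.64 and Tnfrsf13b at −0.19. Without Nav array 40, 7 member probe sets were called in spleen and Tnfrsf13b lost its call (−0.14, adjusted p = 0.0896). In mesenteric lymph node 8 were lower and 4 higher, against 20.7% and 27.6%. Ebf1 read 8.79, 8.98 and 9.30 on probe set 1416301 in Nav nodes against 9.52, 9.64 and 9.88 in vehicle nodes, all 7 below, and differed by −0.67 (adjusted p = 9.07e-07). Ms4a1 read 10.51, 10.92 and 11.17 on probe set 1450912 against 11.34, 11.57 and 11.69 in vehicle, again all 7 below (−0.58, adjusted p = 1.19e-05), while its other probe set differed by −0.18. Fcrla had 1 probe set higher by 0.46 and another lower by 0.34. Hybridisation controls averaged 11.89 in Nav nodes and 11.707 in vehicle nodes, and with these controls as a covariate 8 members were called in place of 12, none of them a probe set of Fcrla. Shares of all probe sets called without Nav array 40 or with this covariate were not counted. Btla and Pou2f2 lost their calls only with that covariate (−0.15, adjusted p = 0.285, and 0.20, adjusted p = 0.247), while these probe sets of Ebf1 (−0.65, adjusted p = 0.000573) and Ms4a1 (−0.38, adjusted p = 0.0263) kept theirs. With the covariate, Ebf1 was also lower on probe set 1448293 (−0.50, limma adjusted p = 0.0096) but higher on 1416302 (0.31, limma adjusted p = 0.0278), so its probe sets disagree. In blood, inguinal lymph node and jejunum no member was called in Nav, with 7 of 47, 6 of 47 and 6 of 37 at an unadjusted p under 0.05, beside 12.4%, 10.9% and 28.2% of all probe sets (limma; backgrounds of calls lower and higher 0 and 0.0061% in blood, 0 and 0.0242% in inguinal lymph node, and 5.5% and 5.12% in jejunum).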

How the data were processed

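The deposited series table holds log2 expression values from the authors' processing of single-colour Affymetrix arrays; the submitters' processing notes name RMA, GCRMA, R 2.11.1 and limma 3.4.5 without saying which did which step. Within a tissue the arrays share a lowest value, so low levels are compressed, and tissues were treated as normalized apart. Probe sets with several symbols (551) were left out. Groups came from the sample titles. In each of the 5 tissues, limma 3.58.1 in R 4.3.3 (with data.table, version 1.17.8) fitted 1 mean per group to probe sets that exceeded the 50th percentile of all values of their tissue on 5 or more arrays, with Benjamini-Hochberg adjustment over all of them. Probe sets of a gene were kept apart. Precision is set by how many arrays a group holds.

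The members and the other lists were chosen with earlier results of these data known. Described in full were up to 6 called members per tissue and treatment by smallest adjusted p and 10 fixed genes; other members are given by value or count. Genes of other lists are up to 3 called per list. The calling step, tested on simulated data with 50 probe sets changed per fold, recovered 40% of 1.2-fold, 58% of 1.25-fold and 92% of 1.5-fold changes in spleen (16556 probe sets). In mesenteric lymph node (16663) it recovered 36%, 46% and 88%. The simulated spleen gave 150 calls, against 2053 lower and 2550 higher in the data, so these shares need not hold for the data. Changes as small as the median member change in spleen (−0.18) were not simulated. Alternatives were other filters, scalings, variance models, array weights, 1 probe set per gene, the groups compared alone, hybridisation controls as a covariate, a replicate block, and arrays left out. Leaving out each array of the larger groups in turn, and fitting spleen and mesenteric lymph node alone, were chosen after seeing the data. The first was done only for DMF179.2 against vehicle in spleen, mesenteric lymph node and jejunum, and for the combination against vehicle in mesenteric lymph node. Brain and kidney were not used here.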

Additional observations from a re-analysis of the deposited data

Results flagged for a closer look

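Within groups of 4 to 10 arrays, 77 sets of values were examined for 1 array far from the others, and 13 held one. Chance marks about 1 in 20 such groups where these are independent. Here several sets come from the same array, such as DMF179.2 array 23 of mesenteric lymph node, so 13 of 77 cannot be set against that rate. The mean of the B cell probe sets was far below the rest of its group in DMF179.2 array 23 of spleen (9.96) and of mesenteric lymph node (8.69), in DMF179.2 array 24 of inguinal lymph node (9.89), and in array 39 of the combination in jejunum (5.60). Nav array 40 stood as far below in spleen (9.80), mesenteric lymph node (9.28) and inguinal lymph node (9.84).

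In mesenteric lymph node, DMF179.2 array 23 was also far below the rest of its group for Ciita (7.68), Tnfrsf13b (8.93), Ralgps2 (9.47) and Ikzf3 (6.93). In jejunum, combination array 39 was far below for Bank1 (2.91). In spleen, vehicle array 5 was far above the other vehicle arrays for Ccr6 (10.14).

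By the F test of the tissue by treatment term over the 5 tissues, 6 of 36 member probe sets were called with DMF100, against 0.984% of all. With DMF179.2 8 were called, a share near the 20.4% of all, and with the combination 18, against 3.24% of all. Gaps that involve jejunum can be called too easily in that fit.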

How the results depend on the processing

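Counts of called member probe sets moved by less than 1.5 times in 324 repeats and further in 69, and the values below are those that moved further or were left-out ranges; the cause was not tested. The value of the main fit is given first for each comparison, as "main". Except for the fits across tissues, shares of all probe sets called in these repeats were not counted. In spleen, DMF179.2 against vehicle (main 23) gave 13 with 1 probe set per gene and 20 to 23 when single arrays were left out. The main spleen fit tested 47 member probe sets of 31 genes. Counts with 1 probe set per gene, here and in the other tissues, therefore have a smaller base than the main counts. DMF100 in spleen (main 1) gave 2 with all probe sets, named or not, with the filter at the 70th percentile, with the hybridisation control covariate, with renewed quantile normalization and with a trended robust variance, and 4 with array weights and without the array of lowest correlation. The combination in spleen (main 0) gave 8 with array weights. Nav in spleen (main 5) gave 3 with 1 probe set per gene, 15 with array weights, 10 with the hybridisation control covariate, 2 with no filter and 3 with the groups compared alone. DMF179.2 against the combination (main 4) gave 2 after centring arrays on their medians, and DMF179.2 against DMF100 (main 3) gave 0 with the groups compared alone.

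In mesenteric lymph node, DMF179.2 against vehicle (main 18) gave 5 with the groups compared alone, 6 without the array of lowest correlation, which is array 23, and 6 to 25 when single arrays were left out. The combination (main 4) gave 2 with 1 probe set per gene, 14 with array weights, 2 with no filter, 7 without the array of lowest correlation and 2 to 5 when single arrays were left out. DMF100 (main 0) gave 2 with array weights. MEF79.2 (main 1) gave 2 with array weights and 0 after centring, with the hybridisation control covariate, with no filter, with the groups compared alone and with renewed quantile normalization. The combination against DMF100 (main 0) gave 1 with the groups compared alone.

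In inguinal lymph node, DMF100 (main 2) gave 1 with all probe sets, 7 with array weights, 1 with no filter, 1 with the groups compared alone and 4 with renewed quantile normalization. DMF179.2 there (main 0) gave 2 with array weights, and with the hybridisation control covariate MEF79.2 (main 0) gave 2 and Nav (main 0) gave 5. In blood, DMF100 (main 1) gave 2 with 1 probe set per gene, with the filter at the 70th percentile and with a trended robust variance, 3 with array weights and without the array of lowest correlation, and 0 with the hybridisation control covariate and with no filter. DMF179.2 in blood (main 0) gave 2 without the array of lowest correlation. In jejunum, the combination (main 1) gave 0 with all probe sets, after centring, with the filter at the 70th percentile, with the hybridisation control covariate, with no filter and without the array of lowest correlation, and 2 with array weights and with the groups compared alone. DMF100 (main 0) gave 2 with array weights, DMF179.2 (main 5) gave 2 with 1 probe set per gene and 4 to 6 when single arrays were left out, and DMF179.2 against DMF100 (main 3) gave 0 with the groups compared alone.

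With a replicate block, the replicate number shared over tissues, the members whose response differed among tissues numbered 16 for DMF100 (main 6), 1 for MEF79.2 (main 0), 8 for DMF179.2 and 24 for the combination; a trended robust variance gave 1 for MEF79.2. With spleen and mesenteric lymph node fitted alone, members whose response differed between these tissues numbered 2 for DMF179.2 (main 0; 0 also without DMF179.2 array 23 of mesenteric lymph node) and 1 for the combination (main 0). Equal numbers showed a median correlation of 0.163 over 397 pairs of arrays, between −0.507 and 0.712, and 249 pairs were over 0.1. The labels do not say that a number is 1 animal, so the block is not part of the main result.

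Of 35 described member changes, 19 stayed called in every repeat run on them and 16 lost the call in at least 1, and none changed sign over 667 repeats. Only some comparisons had each array left out in turn, so the changes did not face equal numbers of repeats. Ciita in DMF179.2 jejuna and Cd37 under the combination in mesenteric lymph node were each lost in 11 repeats. Low values near the shared floor of a tissue are compressed, which limits members such as Ms4a1 in jejunum. Pax5 did not pass the filter in any of the 5 tissues and was not tested.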
